A study of Gallus gallus with 24 samples.

Results

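The genes described here are a set of red blood cell and heme genes, chosen by symbol as a sign of nucleated red cell content in chicken heart and liver: the globins *HBAD*, *HBA1* and *HBBA*, the heme enzymes *ALAS2*, *ALAS1* and *FECH*, the red cell membrane genes *SLC4A1* and *EPB42*, and the transcription factors *GATA1* and *TAL1*. Of these 10 symbols, 8 had a row among the 15051 genes of the count table, and *ALAS2* and *GATA1* had none under these names. The samples were from female broiler chickens. Sal-exposed birds received salinomycin (Sal), an ionophore given against coccidia, in feed at 10.5 mg/kg (about 0.9 mg per kg of bird daily) from week 4 until sampling in week 5. Control birds received Sal-free feed over the same weeks, and all birds had Sal-free feed before that. RNA-seq covered 6 Sal-exposed hearts, 6 control hearts, 6 Sal-exposed livers and 6 control livers, 24 libraries in all. By the study's methods, 6 birds of each group were sampled and their hearts and livers dissected. The hearts and livers of a group thus came from the same birds. Whether a heart and a liver of the same number came from one bird is not stated in the labels.

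Bird erythrocytes keep their nucleus, and young ones still carry RNA, so that blood left in a tissue contributes globin transcripts to its RNA. Adult chicken hemoglobin pairs alpha-type chains with beta-type chains, and each chain holds a heme, the iron-containing ring that binds oxygen. Heme synthesis starts with 5-aminolevulinate synthase and ends with ferrochelatase, which inserts the iron. In bulk tissue, fewer red cells and less RNA per red cell cannot be told apart. Because the heart and liver were also homogenized by different procedures, tissue and procedure cannot be told apart in any comparison between them.

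All 8 genes had counts in every library, except that *EPB42* had 0 counts in control liver 1, where a floor of 3 counts equals 0.105 CPM. On GRCg7b, the alpha-type globins *HBAD* (alpha-D chain) and *HBA1* (alpha-A chain) lie side by side on chromosome 14, at 12114854-12116504 and 12117174-12119420. The row named *HBBA* (beta-A chain) lies on chromosome 1 at 195999967-196006596 and spans 2 RefSeq genes, *HBE* and *HBBA*, so that its counts may hold both beta-type genes. *ALAS1* (chromosome 12, 3121084-3128269) encodes the general 5-aminolevulinate synthase. Its RefSeq entry lists ALAS2 and ALAS-E, names of the erythroid enzyme, as synonyms, and no separate erythroid row was found. *FECH*, ferrochelatase, lies on chromosome Z at 709235-723690. *SLC4A1* (chromosome 27, 2649794-2667228) encodes band 3, the anion exchanger of the red cell membrane. *EPB42* (chromosome 20, 7041977-7051250), protein 4.2 that binds band 3, overlaps the row of *CCNDBP1* by 566 bases, and as the use of strand in counting is not stated its values are uncertain. *TAL1* (chromosome 8, 21597196-21605603) encodes a transcription factor of blood progenitors that erythroid cells, thrombocytes and endothelium also use.

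The libraries held 31.4 to 44.5 M counts on genes. The 3 globin rows together took 0.0171% to 0.133% of the counts in Sal-exposed hearts and 0.0288% to 0.144% in control hearts. In the livers these shares were 0.00788% to 0.0313% in the Sal-exposed and 0.0156% to 0.0467% in the control group. The lowest of the shares, in Sal-exposed liver 4, had a 95% Wilson interval of 0.00759% to 0.00818%, which covers counting error only. Mitochondrially encoded genes took 40.7% to 79.6% of counts in Sal-exposed hearts, highest in hearts 1 and 4, and 38.6% to 47.9% in control hearts. In the livers they took 6.92% to 30.4% in the Sal-exposed and 5.21% to 26.5% in the control group. Cardiomyocyte markers summed to 7.98 to 44.7 CPM in Sal-exposed livers and 47.3 to 281 CPM in control livers, highest in control livers 4, 5 and 6. Among them, *TNNC1* was the highest in liver, with a mean of 16.8 CPM in the Sal-exposed and 105 CPM in the control group. In the hearts, the highest cardiomyocyte marker *ACTC1* averaged 12783 CPM in the Sal-exposed and 9674 CPM in the control group, and in the livers the highest hepatocyte marker *ALB* averaged 77819 CPM in the Sal-exposed and 132271 CPM in the control group. CPM are counts scaled to a common library size after TMM normalization in edgeR within each tissue, unless stated otherwise, and they are not corrected for gene length, so that levels of different genes are not compared.

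The first comparison asked whether Sal exposure changed red cell and heme transcripts in the liver. Both *HBA1* and *HBBA* were lower in Sal-exposed livers and passed both cut-offs, namely 0.05 for the adjusted p and 1 for the size of the log2FC. *TAL1* was also lower and passed the adjusted p alone. *HBAD*, *SLC4A1*, *EPB42*, *ALAS1* and *FECH* did not pass.

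*HBBA* ranged from 34.2 to 126 CPM (median 89.8) in Sal-exposed livers and from 101 to 418 CPM (median 209) in control livers. It averaged 85.1 ± 39.4 CPM in Sal-exposed and 222 ± 117 CPM in control livers (SD, n = 6 each), and the groups overlapped. The log2FC was -1.38 ± 0.38 (SE, edgeR adjusted p = 0.0268). *HBA1* ranged from 21.6 to 83.0 CPM (median 61.8) in Sal-exposed livers and from 59.7 to 234 CPM (median 135) in control livers, with a log2FC of -1.35 ± 0.40 (SE, edgeR adjusted p = 0.0370). Sal-exposed livers 4 and 6 were the lowest for both globins, and control livers 5 and 6 the highest. *HBAD*, whose product forms the minor adult hemoglobin, ranged from 5.80 to 29.5 CPM (median 19.99) in Sal-exposed livers and from 13.1 to 79.0 CPM (median 35.04) in control livers. Its log2FC of -1.09 ± 0.48 (SE) was close to those of the other globins. Its unadjusted p was 0.0403 in edgeR, and it did not pass after adjustment over all genes tested (edgeR, adjusted p = 0.139).

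*TAL1* ranged from 4.41 to 8.75 CPM (median 7.80) in Sal-exposed livers and from 8.17 to 18.98 CPM (median 13.3) in control livers. The groups overlapped only in that control liver 6 was below 1 Sal-exposed liver, liver 2. The log2FC was -0.86 ± 0.23 (SE, edgeR adjusted p = 0.0243). *SLC4A1* ranged from 1.80 to 5.45 CPM in Sal-exposed livers and from 1.86 to 10.5 CPM in control livers (log2FC -0.68 ± 0.40, SE, edgeR adjusted p = 0.258). *EPB42* was near the limit of detection in both groups, with 4 to 28 counts in Sal-exposed livers and 0 to 31 counts in control livers, and no difference was detectable at this depth.

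Neither heme enzyme passed in liver. *ALAS1*, which sets the rate of heme synthesis in liver, ranged from 28.5 to 76.9 CPM in Sal-exposed livers and from 39.2 to 103 CPM in control livers (log2FC -0.25 ± 0.29, SE, edgeR adjusted p = 0.582). *FECH* ranged from 18.1 to 22.4 CPM (median 18.8) in Sal-exposed livers and from 11.2 to 17.5 CPM (median 15.6) in control livers. These 2 ranges did not overlap, as for 5.73% of all genes tested, yet the log2FC of 0.36 ± 0.15 (SE) had an adjusted p of 0.109 in edgeR. Scaled by total counts alone, an alternative added after the data were seen, *FECH* had a log2FC of 0.94 (edgeR, adjusted p = 0.00879), or 0.36 relative to the median gene.

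**Figure D1:**
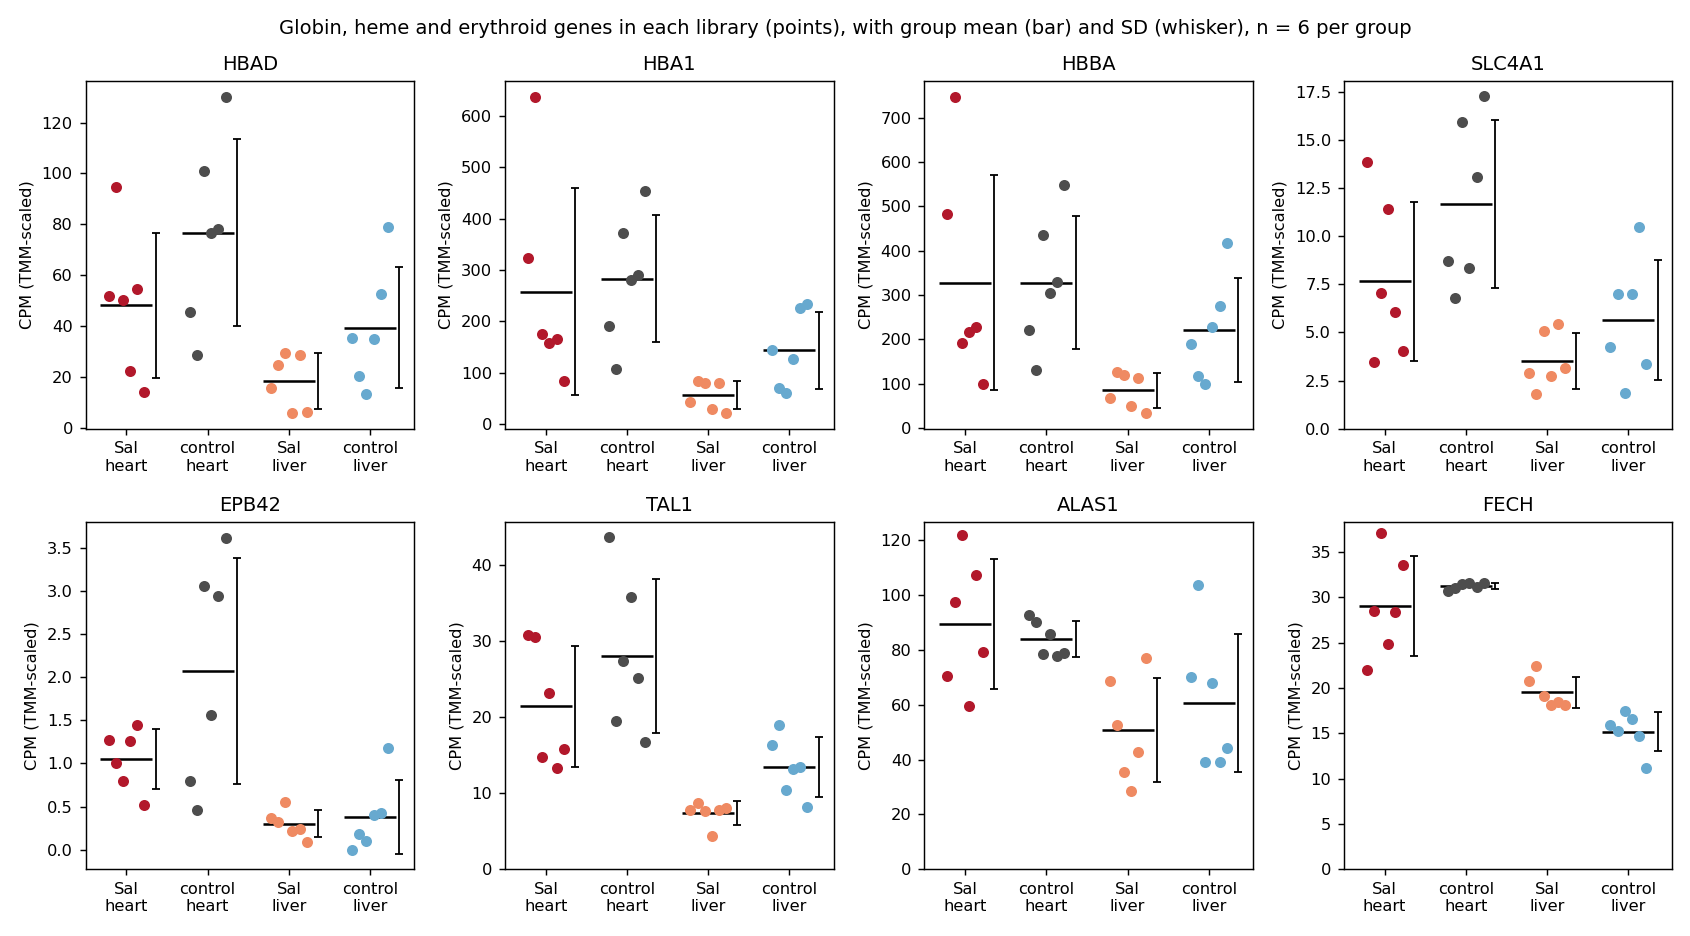
TMM-scaled CPM (y axes, linear) of the 8 genes in each library, by group on the x axes; each tissue was scaled on its own. Bars are group means and whiskers SD, n = 6 per group. *FECH* in liver is the only panel in which Sal-exposed and control libraries of a tissue do not overlap.

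Of the 8 genes, 2 were called in liver, both lower, against 7.02% of the 13587 genes tested that were called in either direction and 3.67% called lower. By the adjusted p alone it was 3 of 8, against 15.5% of all genes, and at an unadjusted p below 0.05 it was 5 of 8, against 31.4%. The log2FC was below 0 for 7 of the 8 genes, against 50.7% of all genes, and its median was -0.77 against -0.01 over all genes.

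Both liver calls held with upper-quartile scaling (edgeR, adjusted p = 0.0404 for *HBA1* and 0.0285 for *HBBA*) and with DESeq2 (adjusted p = 0.00530 and 0.00249). Scaled by total counts alone, the median gene of the liver shifted by 0.59 on the log2 scale and the log2FC was -0.62 for *HBA1* (edgeR, adjusted p = 0.212) and -0.65 for *HBBA* (edgeR, adjusted p = 0.156). Relative to the median gene these values were -1.20 and -1.24, against -1.34 and -1.37 under TMM. TMM factors were 0.921 to 1.41 in Sal-exposed livers and 0.638 to 1.18 in control livers.

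With 4 surrogate variables in the fit, the log2FC was -0.29 for *HBA1* and -0.48 for *HBBA*, and 0 genes of the whole table were called by edgeR (2496 at an unadjusted p below 0.05). With the mitochondrial share as a covariate, neither *HBA1* (log2FC -1.04, edgeR adjusted p = 0.188) nor *HBBA* (log2FC -1.07, edgeR adjusted p = 0.130) passed, and *TAL1* was called at -1.04 (edgeR, adjusted p = 0.00813). *TAL1* did not pass with surrogate variables (log2FC -0.90, edgeR adjusted p = 0.101) or with the replicate number as a block (log2FC -0.84, edgeR adjusted p = 0.0536). Scaled by total counts alone, *TAL1* had -0.29 (edgeR, adjusted p = 0.537), or -0.87 relative to the median gene. *TAL1* passed the adjusted p with DESeq2 (adjusted p = 0.00564) and upper-quartile scaling (edgeR, adjusted p = 0.0302). Without control livers 4, 5 and 6, which had the highest cardiomyocyte marker sums, the log2FC was -0.70 for *HBA1* and -0.68 for *HBBA*, neither called, while *TAL1* had -1.04 (edgeR, adjusted p = 0.0623). Of all livers, control livers 4, 5 and 6 also had the highest hepatocyte marker sums (202885 to 290561 CPM) and the lowest TMM factors (0.638 to 0.723). Which of these differences goes with the change was not tested. Of 8 cardiomyocyte markers tested in liver, all had a log2FC below 0 and *TNNC1* was called (log2FC -2.63, edgeR adjusted p = 0.00355), and their part in the globin result was not tested further. A low row can pass the filter on low counts through the control livers alone, where these markers summed higher. The shared direction of the 8 markers is thus a description only. The 11 hepatocyte rows all had a log2FC below 0 as well, with a median of -0.46, and none was called by edgeR. An unadjusted p below 0.05 was found for 4 of the 11, against 31.4% of all genes.

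With single birds left out, *HBBA* lost its call without Sal-exposed liver 1 or 6 (edgeR, adjusted p = 0.0559 and 0.0600) and without control liver 4 or 5 (edgeR, adjusted p = 0.0523 and 0.0542). *HBA1* lost it without Sal-exposed liver 1, 4, 5 or 6 (edgeR, adjusted p = 0.0729, 0.0664, 0.0509 and 0.0759) and without control liver 1, 4, 5 or 6 (edgeR, adjusted p = 0.0598, 0.0597, 0.0794 and 0.0671). *TAL1* passed the adjusted p in 9 of 12 such fits, the exceptions being Sal-exposed livers 3, 5 and 6 with adjusted p of 0.0511, 0.0514 and 0.0512 in edgeR. The log2FC stayed negative throughout these fits, at -1.51 to -1.15 for *HBA1*, -1.53 to -1.10 for *HBBA* and -0.97 to -0.73 for *TAL1*.

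**Figure D2:**
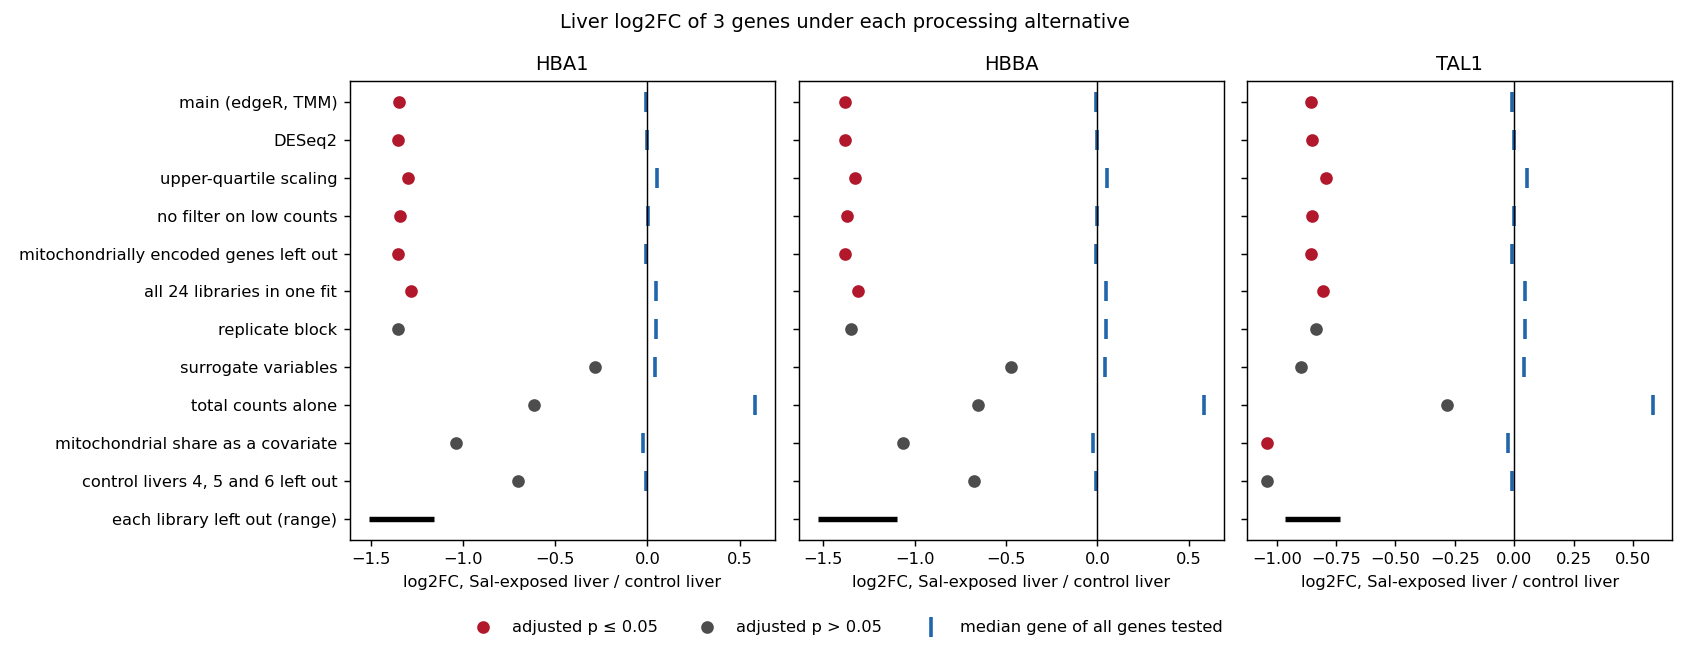
Log2FC of *HBA1*, *HBBA* and *TAL1* in Sal-exposed against control livers (x axes) with edgeR and TMM and under each alternative (y axis). Red points passed an adjusted p of 0.05, grey points did not, blue ticks mark the median gene, and black bars span the fits with 1 library left out. All points are below 0, and they move nearest to it for the globins with surrogate variables and total counts alone.

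Erythroid and heme genes were also read from lists of symbols. These lists were chosen with earlier results of these data known, so that their counts are a description and not independent support. Some lists include genes of the 8 and are not independent of them. *SLC4A1* and *EPB42* are in the membrane list, *TAL1* in the transcription factor list, and *ALAS1* and *FECH* in the heme synthesis list. Over all genes in liver, 7.02% were called, 3.67% were called lower, 15.5% passed the adjusted p and 31.4% had an unadjusted p below 0.05. Of 14 red cell membrane and cytoskeleton genes, 4 were lower in Sal-exposed livers and passed both cut-offs, and the list median was -0.68 against -0.01 over all genes. These were *SPTB*, the beta chain of the spectrin network, at 7.73 ± 2.80 CPM in Sal-exposed and 18.9 ± 5.95 CPM in control livers (SD, n = 6 each, log2FC -1.29, edgeR adjusted p = 0.00937), *ADD2*, which joins spectrin to actin (log2FC -1.68, edgeR adjusted p = 0.0129), *TMOD1*, which caps actin filaments (log2FC -1.58, edgeR adjusted p = 0.0195), and the water channel *AQP1* (log2FC -1.13, edgeR adjusted p = 0.0210). Several of these are not restricted to red cells, since *TMOD1* is a heart gene as well and *AQP1* marks endothelium. *TMOD1* averaged 487 ± 106 CPM in Sal-exposed and 301 ± 67.3 CPM in control hearts (SD, n = 6 each).

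Of 10 erythroid transcription factors, *NFE2*, a regulator of globin genes and of thrombocyte formation, was called lower, at 3.17 ± 1.33 CPM in Sal-exposed and 6.78 ± 2.70 CPM in control livers (SD, n = 6 each, log2FC -1.09, edgeR adjusted p = 0.0429). *GFI1B*, which acts in erythroid and thrombocyte precursors, had a log2FC of -1.18 (edgeR, adjusted p = 0.126). *LMO2*, a partner of TAL1, had a log2FC of 0.06 (edgeR, adjusted p = 0.789). Of the 10 factors, which include *TAL1*, 6 had a log2FC above 0 and 4 below. The list median was 0.10 against -0.01 over all genes. Among the remaining globins, cytoglobin (*CYGB*), a globin of stellate cells and fibroblasts and not of erythrocytes, was called lower, at 5.29 ± 3.61 CPM in Sal-exposed and 13.1 ± 4.52 CPM in control livers (SD, n = 6 each, log2FC -1.31, edgeR adjusted p = 0.0323). Of 8 further erythroid genes, *BNIP3L*, which clears mitochondria from maturing red cells, was higher in Sal-exposed livers by the adjusted p alone (log2FC 0.72, edgeR adjusted p = 0.00907).

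Of 8 heme synthesis genes in the table, including *ALAS1* and *FECH*, 1 passed the adjusted p alone in liver. This was *ALAD*, the enzyme after 5-aminolevulinate synthase, at 71.5 ± 28.05 CPM in Sal-exposed and 123 ± 18.7 CPM in control livers (SD, n = 6 each, log2FC -0.78, edgeR adjusted p = 0.0307). The list median was 0.02. None of 11 heme transport and breakdown genes passed by edgeR, while 5 had an unadjusted p below 0.05, against 31.4% of all genes. The lowest p among them was that of *HPX*, the plasma scavenger of heme (log2FC -1.26, edgeR adjusted p = 0.0538).

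Of 20 iron genes, 3 (2 of them lower) passed both cut-offs in liver, against 7.02% of all genes. A further 3 passed the adjusted p alone. *CP*, the plasma ferroxidase ceruloplasmin, was lower in Sal-exposed livers (log2FC -1.71, edgeR adjusted p = 0.0143), as was *HJV*, a co-receptor in hepcidin control (log2FC -1.01, edgeR adjusted p = 0.0101). By the adjusted p alone, the iron exporter *SLC40A1* and the iron sensor *ACO1* were higher and transferrin (*TF*) was lower. Among 11 regulators of heme genes, *NR1I3*, a nuclear receptor that controls *ALAS1*, was called lower (log2FC -1.03, edgeR adjusted p = 0.0138), and *NFE2L2* was higher by the adjusted p alone (log2FC 0.78, edgeR adjusted p = 0.0295). Of these 11 regulators, 9 had a log2FC above 0, and the list median was 0.34 against -0.01 over all genes.

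Markers of other blood and vessel cells were read in the same comparison, in which 15.5% of all genes passed the adjusted p and 3.67% were called lower. Of 11 thrombocyte markers, 4 were called lower in Sal-exposed livers, among them *ITGA2B*, *ITGB3* and *F13A1*, with log2FC of -1.57, -1.17 and -1.49. The list median was -0.52, and the summed level of all 11 was 59.1 to 88.1 CPM in Sal-exposed livers and 97.1 to 125 CPM in control livers, without overlap. The highest of these markers, *FLI1*, averaged 26.2 CPM in Sal-exposed and 26.3 CPM in control livers. Of 13 leukocyte markers, *PTPRC* and *CD3E* were higher and *MARCO* was lower by the adjusted p alone. The median of this list was 0.15 against -0.01 over all genes, while the sum of all 13 markers was 2687 to 3730 CPM in Sal-exposed and 3397 to 4873 CPM in control livers. The highest of them, *CD74*, averaged 1588 CPM in Sal-exposed and 1994 CPM in control livers. Of 10 endothelial markers, *EGFL7* was called lower (log2FC -1.07, edgeR adjusted p = 0.00179) and *STAB1* was lower by the adjusted p alone (log2FC -0.97, edgeR adjusted p = 0.0115). The median of the endothelial list was 0.01 against -0.01 over all genes. *STAB1* was the highest of the 10, at 135 CPM in Sal-exposed and 265 CPM in control livers, and their sum was 440.1 to 633 CPM in Sal-exposed and 558 to 800.2 CPM in control livers. The part of these cells in the globin and *TAL1* results was not tested. The 5 cell type lists had no gene without counts in any group, apart from 1 hepatocyte row in Sal-exposed hearts.

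Over all these lists, 26 genes besides the 8 passed the adjusted p in liver. In fits that left out each library in turn, 12 of the 26 did not pass without Sal-exposed liver 6, and 13 passed in all 12 fits, among them *SPTB*, *ADD2*, *TMOD1*, *ITGA2B*, *ITGB3*, *HJV*, *CP* and *EGFL7*. By both cut-offs together, *NFE2* and *F13A1* lost their call in 9 of the 12 fits, *CYGB* and *HJV* in 7, *NR1I3* in 6 and *AQP1* in 3. With total counts alone 9 of the 26 passed by edgeR, without control livers 4, 5 and 6 it was 1, and with surrogate variables 0, and none of the 26 turned its direction under these settings.

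**Figure D3:**
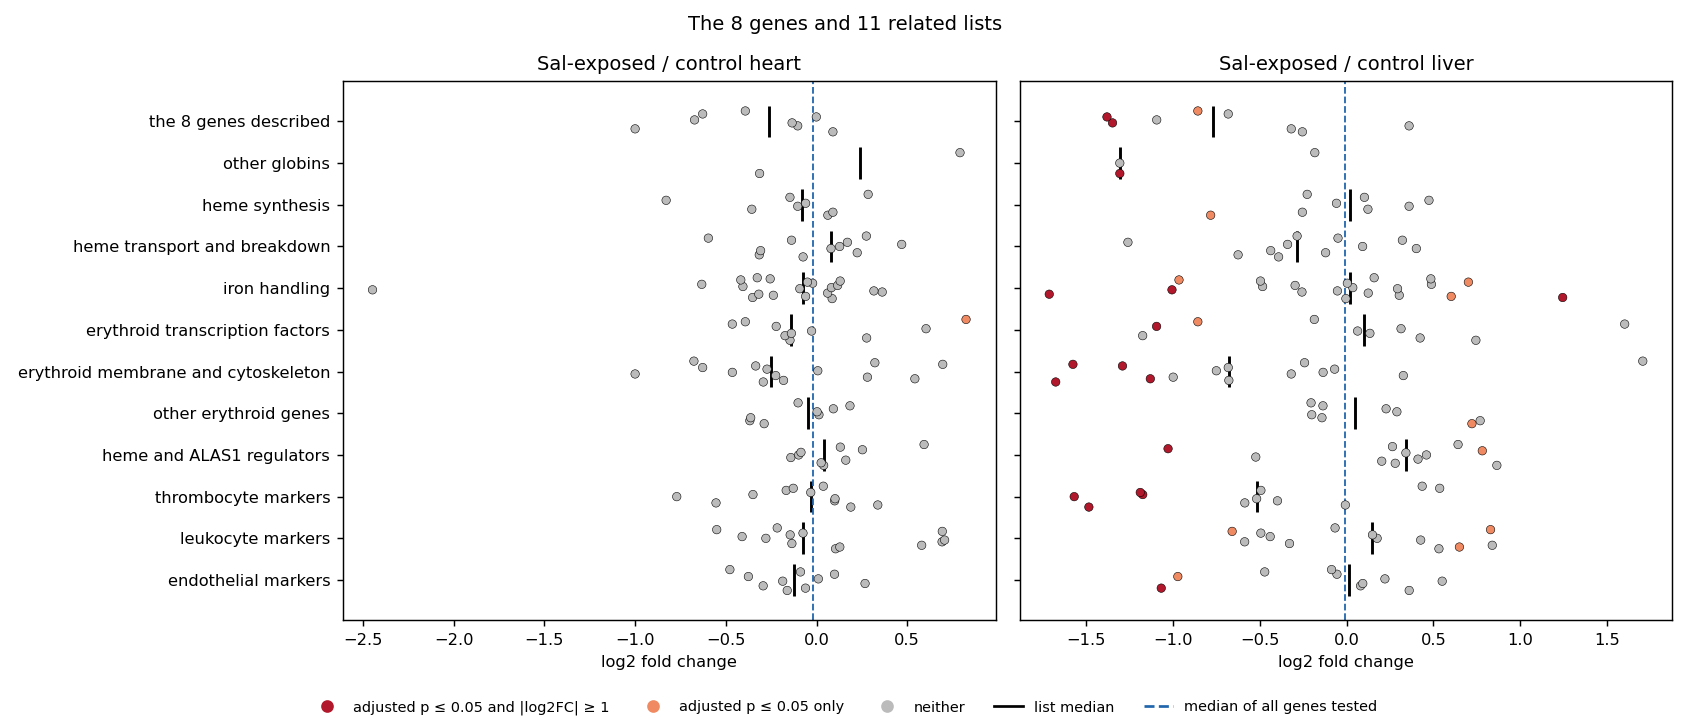
Log2FC (x axes) of the 8 genes and of the genes in 11 lists (rows) in Sal-exposed against control hearts (left) and livers (right). Some of the lists include genes of the 8. Each point is a gene, black ticks are list medians and dashed lines the median of all genes tested. In liver, red points below -1 include 4 red cell membrane genes, 4 thrombocyte markers and 2 of the 8 genes, and in heart no point of these rows is red.

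The same comparison was made in the heart. None of the 8 genes was called, against 0.111% of the 13526 genes tested (15 genes by edgeR), and only *EPB42* had an unadjusted p below 0.05, as did 2321 of all genes (17.2%). DESeq2 also called none of the 8. The groups overlapped for all 8 genes, while 2.61% of all genes had no overlap. The log2FC was below 0 for 7 of them, against 52.2% of all genes, and the median was -0.26 against -0.02.

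*HBA1* ranged from 84.5 to 637 CPM (median 171) in Sal-exposed hearts and from 107 to 453 CPM (median 286) in control hearts, with a log2FC of -0.13 ± 0.45 (SE, edgeR adjusted p = 0.914). *HBBA* ranged from 99.4 to 747 CPM (median 222) in Sal-exposed hearts and from 129.97 to 549 CPM (median 317) in control hearts, with a log2FC of -0.0014 ± 0.45 (SE, edgeR adjusted p = 0.999). Sal-exposed heart 2 was the highest of all 12 hearts for both, and Sal-exposed heart 6 the lowest. *HBAD* ranged from 14.2 to 94.8 CPM (median 51.2) in Sal-exposed hearts and from 28.6 to 130.1 CPM (median 77.3) in control hearts, with a log2FC of -0.67 ± 0.44 (SE, edgeR adjusted p = 0.458). With single hearts left out the log2FC was -0.64 (without Sal-exposed heart 2) to 0.060 (without control heart 6) for *HBA1* and -0.43 to 0.22 without the same hearts for *HBBA*. With surrogate variables in the fit it was -0.63 for *HBA1* and -0.50 for *HBBA*, and with total counts alone -0.71 and -0.60 (-0.17 and -0.064 relative to the median gene), with neither called by edgeR (adjusted p = 0.238 to 0.508).

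*EPB42* averaged 1.05 ± 0.347 CPM in Sal-exposed and 2.07 ± 1.31 CPM in control hearts (SD, n = 6 each, log2FC -1.0004 ± 0.46, SE, edgeR adjusted p = 0.279). The 3 highest values, 2.94 to 3.62 CPM, were all in control hearts, while control hearts 1 and 2 lay within the Sal-exposed range or below it. *SLC4A1* averaged 7.65 ± 4.15 CPM in Sal-exposed and 11.7 ± 4.36 CPM in control hearts (SD, n = 6 each, log2FC -0.63 ± 0.34, SE, edgeR adjusted p = 0.362). Scaled by total counts alone, which shifted the median gene of the heart by -0.54, *SLC4A1* was called at -1.32 (edgeR, adjusted p = 0.0428), or -0.78 relative to the median gene. *TAL1* averaged 21.4 ± 7.90 CPM in Sal-exposed and 28.01 ± 10.2 CPM in control hearts (SD, n = 6 each, log2FC -0.39 ± 0.27, SE, edgeR adjusted p = 0.480).

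*ALAS1* averaged 89.2 ± 23.6 CPM in Sal-exposed and 83.9 ± 6.50 CPM in control hearts (SD, n = 6 each, log2FC 0.09 ± 0.16, SE, edgeR adjusted p = 0.816). *FECH* ranged from 21.96 to 37.04 CPM in Sal-exposed hearts and from 30.7 to 31.6 CPM in control hearts, so that the controls lay in a narrow band inside the Sal-exposed range (log2FC -0.10 ± 0.12, SE, edgeR adjusted p = 0.701). Both enzymes were lowest in Sal-exposed hearts 1 and 4, the libraries with the highest mitochondrial shares. Without these 2 hearts none of the 8 genes was called, and the log2FC of *SLC4A1* was -1.17 (edgeR, adjusted p = 0.110). With the mitochondrial share as a covariate it was -1.17 as well (edgeR, adjusted p = 0.155), against -0.63 without these changes.

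Of the related lists in heart, 1 erythroid transcription factor passed the adjusted p alone. This was *ZFPM1*, the cofactor of GATA factors, at 102 ± 20.9 CPM in Sal-exposed and 57.8 ± 3.01 CPM in control hearts (SD, n = 6 each, log2FC 0.82, edgeR adjusted p = 0.0308). No globin, heme, iron, red cell membrane, thrombocyte, leukocyte or endothelial gene of the lists passed by edgeR. In heart, 17.2% of all genes had an unadjusted p below 0.05. Among the lists this held for 0 of 11 thrombocyte markers, 2 of 8 heme synthesis genes, 2 of 11 heme transport and breakdown genes, 3 of 14 membrane genes (with *EPB42*) and 4 of 20 iron genes. The lowest p among iron genes was that of *HJV* (log2FC -2.45, edgeR adjusted p = 0.0799), which was low at 0.0806 ± 0.0862 CPM in Sal-exposed and 0.503 ± 0.208 CPM in control hearts (SD, n = 6 each). A floor of 3 counts equals 0.0669 to 0.210 CPM in the Sal-exposed hearts. *HJV* was thus at the floor there and passed the filter on low counts through the control hearts, so that its direction is not a result. Thrombocyte markers summed to 142 to 236 CPM in Sal-exposed and 133 to 220.5 CPM in control hearts. Of 12 cardiomyocyte markers, 7 had an unadjusted p below 0.05, 9 had a log2FC above 0 and 3 below. Their median log2FC was 0.40, and none was called by edgeR. They summed to 28292 to 42422 CPM in Sal-exposed and 23161 to 29805 CPM in control hearts. Their part in the results for the 8 genes was not tested. Of the hepatocyte markers, *ALB* (log2FC 2.30) and *AHSG* (log2FC 2.41) were called higher in Sal-exposed hearts (edgeR, adjusted p = 0.0308 and 0.0362), at 29.9 ± 19.04 and 3.11 ± 2.38 CPM in the Sal-exposed group and 6.07 ± 1.52 and 0.584 ± 0.191 CPM in the control group (SD, n = 6 each). All hepatocyte markers together summed to 277 to 499 CPM in Sal-exposed and 228 to 717 CPM in control hearts, and most of this sum was *APOA1*, at a mean of 333 CPM in the Sal-exposed and 443 CPM in the control group. Of 9 hepatocyte rows tested in heart, 8 had a log2FC above 0, all but *APOA1*, and 8 had an unadjusted p below 0.05, with a median log2FC of 1.80 over the 9. A low row can pass the filter on low counts through the Sal-exposed hearts alone, so that the shared direction of these rows is a description only. *ZFPM1*, *ALB* and *AHSG* did not pass the adjusted p without Sal-exposed heart 1 (edgeR, adjusted p = 0.0545, 0.0545 and 0.0889) or without any 1 of control hearts 1 to 5, where it was 0.0551 to 0.0821 for *ZFPM1* in edgeR, and *ZFPM1* and *AHSG* did not pass without control heart 6 either (edgeR, adjusted p = 0.0723 and 0.0773).

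Whether heart and liver responded differently was asked with an interaction term fitted to the 24 libraries. This fit, and the comparison of the control tissues below, treated the libraries as independent. As both tissues of a group came from the same birds, their SE and p-values take no account of the shared birds. None of the 8 genes differed between heart and liver by edgeR, against 10.6% of 14632 genes tested (1544 genes), although 2 of the 8 had an unadjusted p below 0.05, as did 4540 of all genes (31%). The heart response minus the liver response was 1.30 ± 0.61 (SE) for *HBBA* (edgeR, adjusted p = 0.147), 1.14 ± 0.63 for *HBA1* (edgeR, adjusted p = 0.223) and 0.34 ± 0.66 for *HBAD* (edgeR, adjusted p = 0.777). For *FECH* it was -0.52 ± 0.19 (SE, edgeR adjusted p = 0.0559), and for *TAL1* 0.41 ± 0.37 (SE, edgeR adjusted p = 0.475). The lower globin levels of Sal-exposed livers are thus not shown to be particular to the liver, and SE of this size leave room for a difference. DESeq2 called none of the 8 either.

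**Figure D4:**
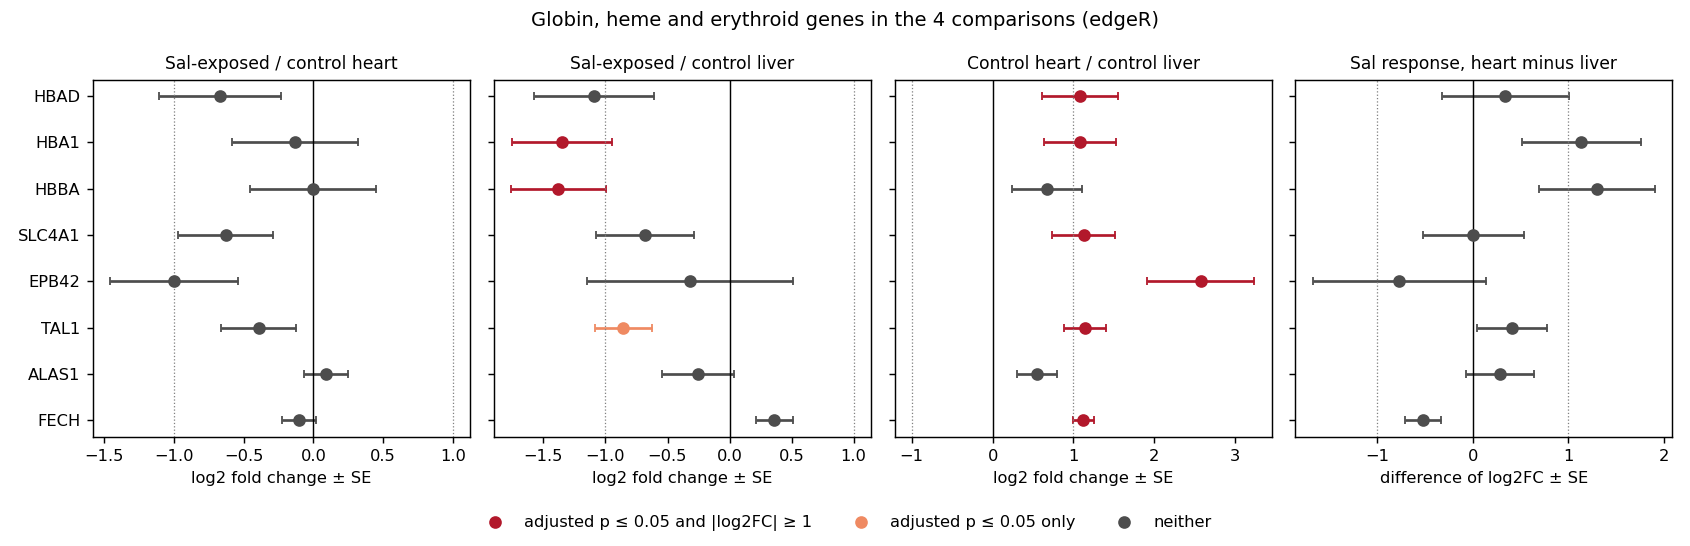
Log2FC ± SE (x axes) of the 8 genes (y axis) in Sal-exposed against control hearts, Sal-exposed against control livers, control hearts against control livers, and the heart response minus the liver response. Dotted lines mark a log2FC of -1 and 1. Red points passed both cut-offs, as *HBA1* and *HBBA* did in liver and 6 genes did between control tissues, and the orange point, *TAL1* in liver, passed the adjusted p alone.

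Between the control tissues, 6 of the 8 genes were called, all higher in heart, against 52.3% of all 14632 genes called in either direction and 27.4% called higher. On the scale of all 24 libraries, *HBA1* ranged from 109 to 463 CPM (median 293) in control hearts and from 59.1 to 222 CPM (median 128) in control livers (log2FC 1.08 ± 0.45, SE, edgeR adjusted p = 0.0333). *HBAD* ranged from 29.2 to 133.0 CPM in control hearts and from 13.003 to 70.8 CPM in control livers (log2FC 1.08 ± 0.47, SE, edgeR adjusted p = 0.0457). *HBBA* did not pass, at 133 to 561 CPM in control hearts and 99.5 to 375 CPM in control livers (log2FC 0.68 ± 0.43, SE, edgeR adjusted p = 0.165). The groups overlapped for all 3 globins.

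*SLC4A1* averaged 11.9 ± 4.44 CPM in control hearts and 5.47 ± 3.12 CPM in control livers (SD, n = 6 each, log2FC 1.13, edgeR adjusted p = 0.0127). *EPB42* averaged 2.12 ± 1.34 CPM in control hearts and 0.356 ± 0.379 CPM in control livers (SD, n = 6 each, log2FC 2.58, edgeR adjusted p = 0.00136). *TAL1* averaged 28.6 ± 10.4 CPM in control hearts and 12.97 ± 3.998 CPM in control livers (SD, n = 6 each, log2FC 1.14, edgeR adjusted p = 0.000409). *FECH* was the only one of the 8 without overlap, at 31.4 to 32.4 CPM in control hearts and 10.0 to 17.3 CPM in control livers (log2FC 1.12 ± 0.13, SE, edgeR adjusted p = 4.7e-08), and 51.7% of all genes had no overlap. *ALAS1* had a log2FC of 0.55 ± 0.25 (SE, edgeR adjusted p = 0.0540). Of 14 red cell membrane genes, 7 were called higher in control hearts, against 27.4% of all genes. These include *SLC4A1* and *EPB42* themselves. Also among them were *TMOD1* at a log2FC of 5.39 and *ANK1* at 3.79, genes that heart muscle expresses itself.

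Leaving out control heart 3 or 6, or control liver 1, 2, 3 or 4, took *HBA1* over an adjusted p of 0.05 in edgeR (0.0639, 0.0863, 0.0513, 0.0730, 0.0755 and 0.0560). *HBAD* lost its call in 13 of 24 such fits, at adjusted p from 0.0506 to 0.119 in edgeR, namely without Sal-exposed heart 1, 3 or 5, Sal-exposed liver 1 or 2, control heart 3, 4, 5 or 6, or control liver 1, 2, 3 or 4. *SLC4A1* fell under the log2FC cut-off without control heart 6 (0.98) or control liver 3 (0.95), and *TAL1* without control heart 1 (0.97). With total counts alone the median gene shifted by 0.53, and *HBBA* was called as well at 1.29 (edgeR, adjusted p = 0.0108). With the mitochondrial share as a covariate, *HBA1*, *HBAD* and *SLC4A1* did not pass (edgeR, adjusted p = 0.176, 0.0835 and 0.256), at a log2FC of 0.98, 1.32 and 0.68, and *ALAS1* was called at 1.29 (edgeR, adjusted p = 0.000339). This share was 38.6% to 47.9% in control hearts and 5.21% to 26.5% in control livers, without overlap. Such a fit can hardly tell tissue and share apart.

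The last question was which genes followed *HBA1* from bird to bird. Pearson's r was taken over the 12 libraries of a tissue, on log2 CPM after removal of the group means, and permutation p-values were adjusted over all genes of the tissue. *HBBA* had the highest r of all genes in both tissues. In heart its r was 0.99 (Spearman's rho 0.96), and in liver 0.98 (Spearman's rho 0.94). *HBAD* had rank 5 in heart (r = 0.91) and rank 2 in liver (r = 0.97). The permutations can give no p below 1e-05, which for a single gene does not pass after adjustment over 13525 genes in heart or 13586 in liver, so that the r values stand as a description. No adjusted p passed in either tissue (permutation tests, adjusted p = 0.203 for *HBBA* and 0.270 for *HBAD* in heart, and 0.317 for both in liver), and 1295 genes in heart and 952 in liver had an unadjusted p below 0.05.

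The relation among the globins held in each group. Within Sal-exposed hearts r with *HBA1* was 0.99 for *HBBA* and 0.86 for *HBAD*, and within control hearts 0.997 and 0.995. Within Sal-exposed livers it was 0.997 for *HBBA* and 0.97 for *HBAD*, and within control livers 0.95 and 0.97. Without the 2 libraries farthest from the median, Sal-exposed hearts 2 and 6, r in heart was 0.98 for *HBBA* and 0.85 for *HBAD*. In liver, without Sal-exposed liver 6 and control liver 3, it was 0.96 and 0.95.

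The others of the 8 genes had a lower r. For *EPB42* r was 0.67 in heart and 0.54 in liver, and for *SLC4A1* 0.27 and 0.33. *SLC4A1* had an r of 0.89 within control hearts and of -0.05 within Sal-exposed hearts, a difference that was not tested. *TAL1* had an r of 0.39 in heart and 0.02 in liver, *ALAS1* of -0.03 and -0.33, and *FECH* of -0.30 and -0.25. In heart, the genes most like *HBA1* besides the globins were *HSBP1L1* (r = 0.92), *HES6* (r = 0.92) and an Ensembl gene without a symbol (r = 0.92). In liver they were *CATH2*, a cathelicidin of granulocytes (r = 0.89), the ribosomal protein gene *RPL36* (r = 0.87) and *NPDC1* (r = 0.87). The level of *CATH2* was low, at a mean log2 CPM of -1.03 over the 12 livers.

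**Figure D5:**
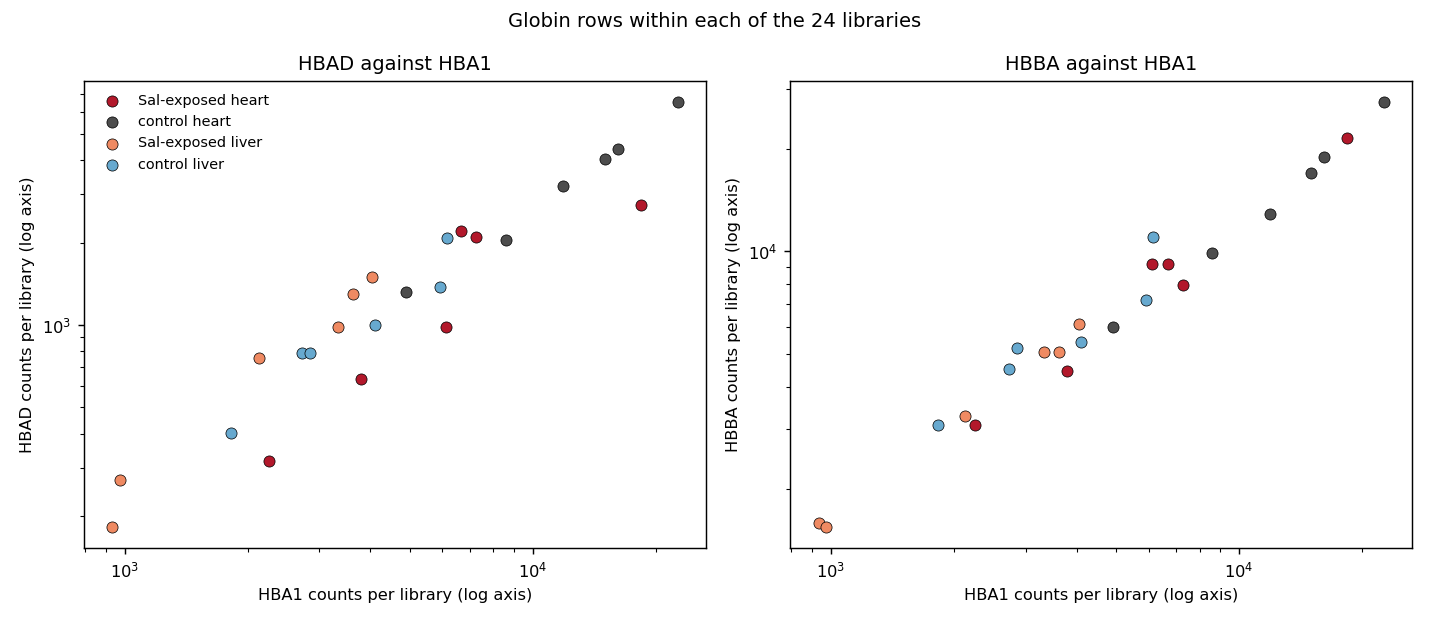
Counts of *HBAD* (left) and *HBBA* (right) against counts of *HBA1* in each of the 24 libraries, on log axes, with color marking the group. *HBA1* counts were 2252 to 18415 in Sal-exposed hearts, 4903 to 22669 in control hearts, 933 to 4047 in Sal-exposed livers and 1826 to 6159 in control livers.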

How the data were processed

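RNA-seq of 24 chicken heart and liver libraries was analysed from gene counts. According to their methods, the authors trimmed reads with fastp, mapped them to GRCg7b with STAR and quantified genes with RSEM, and the tool versions are not given in the sources used here. The deposited table holds whole-number counts for 15051 genes without normalization, in 36 columns, of which 12 match no sample here and were not used. The deposited tables of the authors' comparisons hold log2 fold changes, p-values and adjusted p-values with a Wald score from DESeq2. Only gene symbols and positions were taken from them.

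In R 4.3.3, edgeR 4.0.16 (TMM, filterByExpr at minimum count 10 and total 15, quasi-likelihood test, Benjamini-Hochberg adjustment) compared Sal-exposed and control libraries within a tissue (12 libraries). Tissue and interaction contrasts used all 24. Calls needed an adjusted p up to 0.05 and a log2FC of 1 or more in size. Likeness to *HBA1* used 100000 permutations within groups. Self-tests on simulated data were run for the edgeR fits and the likeness test. Alternatives were DESeq2 1.42.0, upper-quartile scaling, no filter, mitochondrial genes left out, the adjusted p alone, surrogate variables (sva 3.50.0), a replicate block, all 24 libraries, and each library left out. Added after the data were seen were total counts alone, the mitochondrial share as a covariate, 2 sets of libraries left out and the ratios between globins. No library was a copy of another (over 276 pairs the chi-square per degree of freedom was 12.9 or more).

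The genes and lists were chosen with earlier results of these data known. Named are all 8 genes, list genes past a cut-off or otherwise lowest in p, the 5 genes most like *HBA1* in each tissue, and the highest gene of each marker list. *LMO2*, *GFI1B* and *ANK1* were named after their values were seen. *NGB* was filtered out in heart. For 2 list genes past both cut-offs in liver, the single-gene results are not reported here.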

Additional observations from a re-analysis of the deposited data

Results flagged for a closer look

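Of 32 groups of 6 libraries, 8 genes in 4 groups, 2 held a library far from the other 5, where chance gives about 1 in 20 groups. *EPB42* reached 1.18 CPM in control liver 6, while the next control liver had 0.421 CPM. Without this library the log2FC of *EPB42* in liver was 0.48 (edgeR, adjusted p = 0.694), against -0.32 with all livers. *TAL1* was at 4.41 CPM in Sal-exposed liver 4, while the next Sal-exposed liver had 7.68 CPM. Sal-exposed liver 4 also had the highest mitochondrial share of the livers, 30.4%, and the lowest share of counts on globins.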

How the results depend on the processing

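The 8 genes were compared in 4 contrasts. Upper-quartile scaling, no filter and DESeq2 left the number of the 8 called as it was in each of these contrasts. For these 8 genes, no log2FC between the control tissues changed sign under any alternative. In heart, the count of all genes called, 15 by edgeR, was 126 with DESeq2, 26 with the adjusted p alone, 106 with surrogate variables, 37 with all 24 libraries in the fit, 176 with total counts alone and 2 with the mitochondrial share as a covariate. In liver, it was 954, and became 2110 with the adjusted p alone, 0 with surrogate variables (2496 at an unadjusted p below 0.05), 1457 with all 24 libraries, 2595 with total counts alone and 13 without control livers 4, 5 and 6. For the interaction it was 1544, and became 2370 with the adjusted p alone and 6102 with total counts alone. Calls that were higher made up 80.0% in heart, but 61.1% with DESeq2, 44.3% with surrogate variables and 4.55% with total counts alone. In liver they made up 47.7%, but 58.4% with upper-quartile scaling, 59.2% with all 24 libraries and 96.1% with total counts alone, and for the interaction 43.5% against 1.57% with total counts alone. Between the control tissues they were 52.4%, against 67.2% with total counts alone.

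Of the 8 genes, total counts alone called 1 in heart (*SLC4A1*), 0 in liver and 1 for the interaction (*FECH*, -1.51). In liver, 0 were called with surrogate variables or without control livers 4, 5 and 6, and 1 (*TAL1*, -1.04) with the mitochondrial share as a covariate. The log2FC turned in heart for *HBBA* (0.017 with DESeq2, 0.0087 without mitochondrial genes), *ALAS1* (-0.34 with total counts alone) and *FECH* (0.057 with the mitochondrial covariate, 0.033 without Sal-exposed hearts 1 and 4). In liver it turned for *EPB42* (0.85 with surrogate variables, 0.45 with total counts alone, 0.28 with the mitochondrial covariate, 1.61 without control livers 4, 5 and 6) and for *ALAS1* (0.31 with total counts alone). For the interaction, *SLC4A1* was at -0.037 with upper-quartile scaling and -0.45 with the mitochondrial covariate, and total counts alone, which moved the median gene by -1.14, gave -0.83 for *HBAD*, -0.092 for *HBA1*, -0.65 for *ALAS1*, -1.29 for *SLC4A1* and -0.75 for *TAL1*. Without removal of group means, 2 of the 8 genes (*HBBA* and *HBAD*) passed the likeness test in liver. How many of all genes passed it was not counted, and such an r also holds the difference between the groups. With upper-quartile scaling the r of *TAL1* in liver was -0.018. The cause of these changes was not tested.

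With the replicate number as a block, edgeR called 0 genes in heart (1888 at an unadjusted p below 0.05) and 602 in liver, of which 0 of the 8, with *HBA1* at -1.35 (adjusted p = 0.126), *HBBA* at -1.35 (adjusted p = 0.119), *EPB42* at 0.28 and, for the interaction, *SLC4A1* at -0.16. Within a tissue this block joins a Sal-exposed and a control bird of the same number, which are different birds, and it takes degrees of freedom from the fit. Deviations of same-numbered Sal-exposed and control libraries correlated at -0.17 to 0.07 in heart and -0.07 to 0.10 in liver. Those of same-numbered hearts and livers correlated at -0.06 to 0.47 in the Sal-exposed group (over 0.1 in 4 of 6, and 5 of 6 correlated best with their own number) and at -0.02 to 0.21 in the control group (2 of 6, and 3 of 6), so that not every pair passed 0.1 and the contrasts between tissues took no account of the number. With the block, the control hearts against control livers gave 1.09 for *HBAD* (edgeR, adjusted p = 0.00290) and 1.09 for *HBA1* (edgeR, adjusted p = 0.00557).

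With each library left out in turn, 0 to 71 genes were called in heart (0 without any 1 of control hearts 1 to 5, 3 without Sal-exposed heart 1 or control heart 6, 29 and 71 without Sal-exposed hearts 4 and 3) and 511 to 1286 in liver (619 and 511 without Sal-exposed livers 5 and 6). Of the 8 genes, 0 to 2 were called in liver and 3 to 6 between the control tissues (3 without control heart 6 or control liver 3). The log2FC was -0.64 to 0.060 for *HBA1*, -0.43 to 0.22 for *HBBA* and -0.015 to 0.19 for *ALAS1* in heart, -0.58 to 0.48 for *EPB42* in liver and -0.27 to 0.19 for *SLC4A1* in the interaction. The log2 ratio of *HBAD* to *HBA1* between the control tissues was -0.034 to 0.089, and that of *HBBA* to *HBA1* between Sal-exposed and control livers -0.094 to 0.024. For *EPB42* in liver, counts of 0 to 31 limit what could be detected.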

Other observations

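The ratio of 2 globin rows within a library needs no scaling between libraries. This comparison was chosen after the data were seen, with 6 exact two-sided permutation tests of log2 ratios. The count of *HBBA* per count of *HBA1* was lower in control hearts, at 1.08 to 1.22 (median 1.16), than in control livers, at 1.21 to 1.82 (median 1.67). The log2 difference was -0.43 (exact permutation test, p = 0.00649, adjusted over the 6 tests 0.0390). With each library left out in turn it was -0.50 to -0.38, with p from 0.00433 to 0.0130 by the same exact test, and 4 of 6 control hearts lay below all control livers. The exact test between the control tissues treated the libraries as independent, so that its p takes no account of the shared birds. Tissue and homogenization procedure cannot be told apart here either. The *HBBA* row spans 2 beta-type genes, and which of them carries the difference was not tested. In Sal-exposed against control livers this ratio was 1.399 to 1.70 against 1.21 to 1.82 (exact permutation test, p = 0.853).

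The count of *HBAD* per count of *HBA1* was 0.141 to 0.329 (median 0.165) in Sal-exposed hearts and 0.238 to 0.287 (median 0.270) in control hearts. In 4 of 6 Sal-exposed hearts (1, 2, 4 and 6) it was below every control heart. In Sal-exposed heart 5 it was above every one (0.329), and Sal-exposed heart 3 (0.2875) was level with the highest, control heart 6 (0.2870). The log2 difference of -0.46 did not pass (exact permutation test, p = 0.0606, adjusted over the 6 tests 0.182), and without Sal-exposed heart 3 or 5 the p was 0.0303 by the same exact test. The spread of this log2 ratio was 0.52 in Sal-exposed and 0.09 in control hearts (SD, n = 6 each), a difference that was not tested. In the livers it was 0.196 to 0.370 in the Sal-exposed and 0.220 to 0.338 in the control group (exact permutation test, p = 0.275).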
